A study of Mus musculus with 9 samples.

Results

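The nuclear oxidative phosphorylation genes described here are the rows of the deposited mouse expression table whose symbols begin with Nduf followed by a, b, c, s or v and a digit, are Sdha to Sdhd, begin with Uqcr, begin with Cox4 to Cox8 and a letter a, b or c, or begin with Atp5. The rule found 83 genes among the 20778 rows, of which 36 were placed in complex I, 4 in complex II, 8 in complex III, 18 in complex IV and 17 in complex V. Ndufa4 and Ndufa4l2 were counted with complex IV, where the NDUFA4 protein is now placed. The symbols cover some genes that are not subunits, among them Atp5s, which encodes coupling factor B, and Cox7a2l, which encodes a factor of respiratory supercomplexes. The rule does not reach a few true subunit genes with other names, such as Ndufab1, Cyc1 and Cox4i1, which are described apart.

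Oxidative phosphorylation runs in the inner mitochondrial membrane. Complexes I and II feed electrons from NADH and succinate to ubiquinone, complexes III and IV pass them by way of cytochrome c to oxygen, and complexes I, III and IV pump protons whose return through complex V, the ATP synthase, drives ATP synthesis. Most subunits are encoded in the nucleus and imported, while a small set of hydrophobic core subunits of complexes I, III, IV and V is encoded by the mitochondrial genome. In glioma, as in other tumours, the balance between this route and glycolysis is known to vary with oxygen supply and proliferation.

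The study sequenced bulk RNA of 3 groups with 3 libraries each, 9 in all. The tumour group came from brains of 7-week-old male C57BL/6 mice, 5 in number, that received 50000 mCherry-labelled cells of the mouse glioblastoma line GL261 in the striatum and were killed 14 days later; the labels call these libraries whole tumour cells. The 2D culture group was GL261 mCherry grown on a petri dish together with astrocytes, microglia, pericytes and endothelial cells freshly isolated from brains of male C57BL/6 mice aged 6 to 10 weeks, and the 3D bioink group was the same mixture in a fibrin gel, with GL261 seeded at 1000000 cells per ml in either format. All 3 groups therefore share the GL261 line, and the astrocytes were the cells left over once the other types had been taken out with beads. Only the bioink is described as having been digested before RNA isolation, in collagenase II (600 U per ml, 3 h) and passed through a 70 µm mesh. The labels do not say that the 3 libraries of a group came from separate mice or cultures, so the tests compare groups with a spread that may be technical only.

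The values are gene-level counts that the authors normalized and rounded to whole numbers, so depth per library is unknown and neither intervals from counting error nor detection limits can be had. Sums of the deposited values ran from 16320090 to 16388074 in tumour libraries, from 15572800 to 15711632 in 2D culture and from 13548461 to 13683978 in bioink. The bioink library of replicate 1 stood apart, with an array weight of 0.236 against 0.688 to 4.96 in the other libraries. The weight of 4.96 was that of bioink replicate 3, against 0.761 for bioink replicate 2 and at most 1.77 outside the bioink. Bioink values with array weights therefore rest mostly on bioink replicate 3. Against the labels, the 10 listed markers of microglia and macrophages summed to 27335 to 29898 in tumours but to 200 to 244 in 2D culture and 425 to 484 in bioink, with C1qa and Tyrobp listed at 0 in all 2D libraries and Tyrobp in all bioink libraries. The 5 fibroblast markers summed to 945 to 1004 in tumours, 8951 to 9480 in 2D culture and 13906 to 14963 in bioink. Most of the 2D sum was Col1a1 and Col1a2, while Dcn (3, 4 and 0) and Lum (3, 0 and 0) were near 0 there. The 5 markers of cycling cells summed to 6623 to 7410, 17757 to 17809 and 8711 to 9100. Of these 5, 1 was called higher and 1 lower in bioink than in tumours, with a median log2 difference of 0.05. The 5 neuronal markers summed to 4807 to 5042 in tumours, 1683 to 1766 in 2D culture and 898 to 1150 in bioink, nearly all of it Tubb3 in tumours and 2D culture, while Rbfox3 was listed at 0 in all tumour and 2D libraries. The part of these cell type differences in the results below was not tested, and in bulk RNA fewer cells of a type and less RNA per cell cannot be told apart.

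Many nuclear genes of the respiratory chain are known to carry sites for the nuclear respiratory factor NRF1 in their promoters. RefSeq promoter windows (GRCm38.p6, 250 bases before to 50 after the annotated start) were found for 66 of the 83 members. Of these, 19 (28.8%) held the NRF1 motif GCGCANGCG on either strand, against 6.47% of 27025 promoters of the same length. The oestrogen-related receptor motif AAGGTCA was in 8 (12.1%, against 4.66%), the YY1 motif AAGATGGC in 8 (12.1%, against 2.88%), the GABP motif CCGGAAGT in 5 (7.58%, against 4%) and the SP1 motif GGGCGGG in 22 (33.3%, against 25.8%). The 120 bases before the start are given for 4 members that were lower in bioink than in tumours and for Sdha, which was higher, since together they hold 4 of the motifs and Sdha, with 3 NRF1 matches, carries the same motif as members that moved the other way. Capitals mark matches to the 5 motifs on either strand.
Ndufa8: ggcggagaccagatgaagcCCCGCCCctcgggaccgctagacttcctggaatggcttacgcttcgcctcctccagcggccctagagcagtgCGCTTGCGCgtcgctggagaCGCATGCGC
Ndufb4: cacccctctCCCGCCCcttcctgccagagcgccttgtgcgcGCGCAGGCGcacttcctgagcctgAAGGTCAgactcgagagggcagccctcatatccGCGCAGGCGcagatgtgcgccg
Atp5k: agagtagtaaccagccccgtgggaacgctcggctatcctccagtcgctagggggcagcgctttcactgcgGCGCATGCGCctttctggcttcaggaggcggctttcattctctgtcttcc
Atp5h: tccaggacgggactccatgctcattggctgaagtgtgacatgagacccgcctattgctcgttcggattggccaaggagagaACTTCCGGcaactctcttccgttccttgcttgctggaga
Sdha: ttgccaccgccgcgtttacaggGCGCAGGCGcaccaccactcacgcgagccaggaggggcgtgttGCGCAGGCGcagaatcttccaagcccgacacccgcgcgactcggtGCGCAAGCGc
All 5 windows lie on the minus strand, at chr2:36049339-36049458 for Ndufa8, chr16:37654369-37654488 for Ndufb4, chr5:108434400-108434519 for Atp5k, chr11:115419920-115420039 for Atp5h and chr13:74350241-74350360 for Sdha, and are printed in the direction of the gene. Capitals are NRF1 matches in Atp5k and Sdha, NRF1 and SP1 matches in Ndufa8, NRF1, ERR and SP1 matches in Ndufb4, and a GABP match in Atp5h. On the palindrome in Atp5k the matches of both strands overlap. Outside these 120 bases, Atp5h and Ndufb4 each hold another NRF1 match in the 300-base window. A match is a description of the letters and not a binding site. Of the tested members with a window, 16 of 19 with the NRF1 motif and 33 of 44 without it were called lower in bioink than in tumours, with median log2 differences of -0.75 and -0.73.

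The first comparison asked how the nuclear genes of oxidative phosphorylation in the bioink stood against the tumour in the animal. Most were lower. Testing was limited to rows whose mean over all libraries reached 10, which 78 members did; of these, 61 were called lower and 3 higher at an adjusted p under 0.05 in limma, and the median log2 difference was -0.74. This comparison was broad, however: 64.4% of the 13773 rows tested were called in either direction, 37.3% lower and 27.1% higher, and the median of all rows was -0.11. The 3 members called higher were Ndufs1, Sdha and Ndufa4l2. The 5 members left untested for low values were Ndufa11b, Cox7a1, Cox7b2, Cox8b and Cox8c, the last of which was listed at 0 in every library.

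Summed over all 83 genes, the deposited values were 129076, 126689 and 126536 in the tumours, 142682, 140134 and 135871 in the 2D culture and 76358, 74213 and 76071 in the bioink. The bioink libraries lay below all others and did not overlap with them.

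In the 2D culture, which was seeded with the same cell types without the gel, most members were not called. Against tumours, 21 of 78 members were called higher and 8 lower, with a median log2 difference of 0.08, where 54.3% of all rows were called, 27.3% higher and 27% lower, and the median of all rows was 0.01. The share of members called in either direction, 37.2%, was below that of all rows. Set directly against 2D culture, the bioink had 62 members lower and 1 higher, with a median of -0.78; here 59.2% of all rows were called, 32.2% lower and 27% higher, around a median of -0.02. All 3 comparisons share libraries, so they are not independent of each other. In 56 of the 78 tested members all 3 bioink libraries lay below all 6 other libraries, which held for 23.4% of all rows tested. In 1 member, Ndufa4l2, all 3 lay above, which held for 17.7% of all rows tested.

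**Figure D1:**
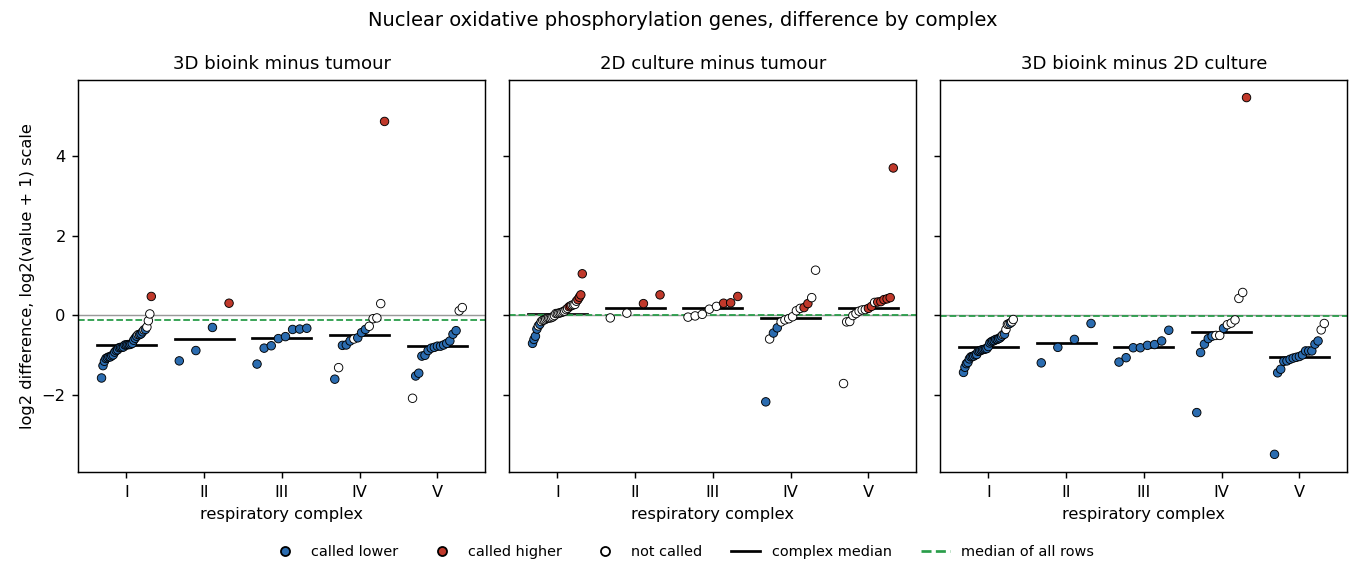
Log2 difference of each tested member in the 3 comparisons, by respiratory complex; each point is 1 gene, filled where called, bars are complex medians and the dashed line is the median of all rows tested. In both panels that involve the bioink the medians of all 5 complexes lie below 0, between -0.42 and -1.04.

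The length of the coding sequence moved with the bioink results and is given here before the single genes. The tested members are short, with a median coding length of 410 bases (range 156 to 2181) against 1407 bases for all rows with a known length, taking the longest coding sequence of each symbol in GENCODE. Among the other rows of the table, the median log2 difference between bioink and tumour was -0.54 for those of up to 300 bases, -0.58 from 300 to 450, -0.42 from 450 to 600, -0.38 from 600 to 900, -0.21 from 900 to 1500, 0.08 from 1500 to 3000 and 0.35 above that. Members in the same classes, up to 3000 bases, had medians of -0.59, -0.63, -0.84, -0.93, -0.81 and -0.24, from 21, 25, 12, 9, 7 and 4 genes. Below 450 bases the members lay close to other rows of their length, of which 51.4% and 53.9% were called lower, and between 450 and 1500 bases they lay further down than those rows.

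Against 2D culture the other rows had medians of -0.34, -0.51, -0.34, -0.25, -0.07, 0.11 and 0.31 over the same classes, and the members -0.61, -0.76, -0.73, -0.90, -0.88 and -0.79. Between 2D culture and tumour the other rows showed no such slope, with medians between -0.10 and 0.03. With a smooth length trend taken out of every library, 37 members were called lower and 5 higher in bioink against tumour, with a median of -0.27. Of all rows, 36% were then lower and 26.1% higher, with a median of -0.10. Against 2D culture 48 members were lower and 4 higher, with a median of -0.47. There 31.8% of all rows were lower and 25.8% higher, with a median of -0.03. The median of the members minus that of all rows went from -0.62 to -0.17 against tumour and from -0.76 to -0.44 against 2D culture. With a trend fitted robustly, a form chosen after seeing the data, the counts were 43 lower and 3 higher, median -0.33, and 48 lower and 5 higher, median -0.44. Of all rows, 36.2% were then lower and 26.1% higher against tumour, and 32% lower and 25.6% higher against 2D culture. What the length of a gene stands for in these libraries was not tested.

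**Figure D2:**
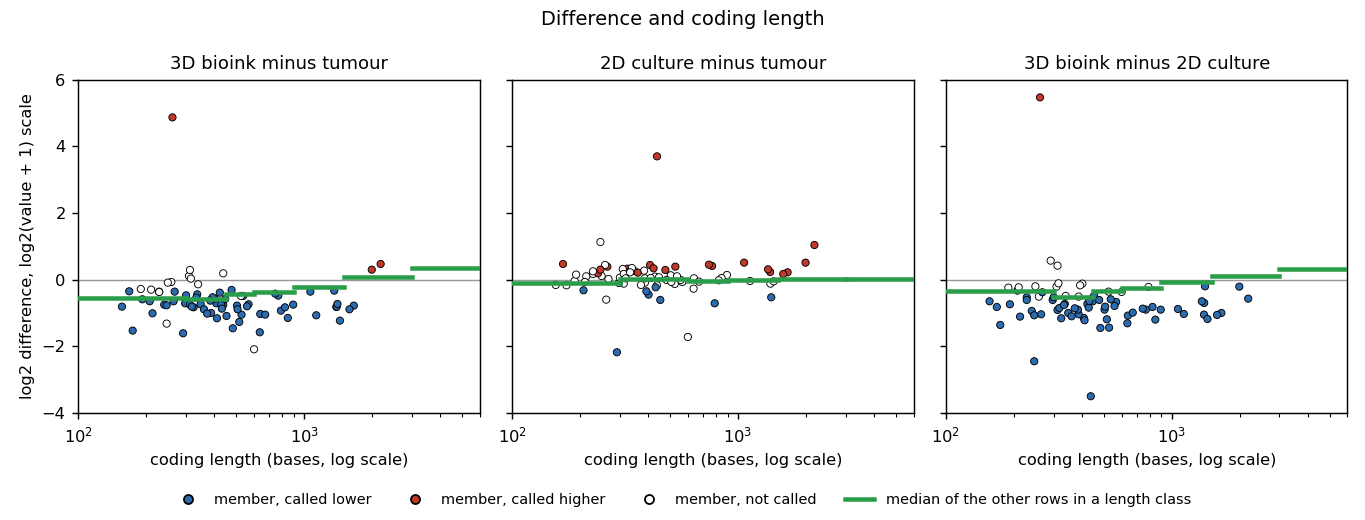
Log2 difference of the tested members against coding length (log axis) in the 3 comparisons, with the median of the other rows in each length class as green bars. In bioink against tumour the green bars climb from -0.54 in the shortest class to 0.35 in the longest, and between 2D culture and tumour they stay near 0.

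Complex I, the NADH dehydrogenase, is the largest of the complexes. In bioink 29 of its 35 tested genes were lower than in tumours and 1 was higher, with a median log2 difference of -0.75, and 29 were lower than in 2D culture, with a median of -0.79. Between 2D culture and tumour 6 were higher and 5 lower, with a median of 0.04. With the length trend taken out, 19 were lower in bioink than in tumours and 2 were higher, where 36% of all rows were lower and 26.1% higher.

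The 7 nuclear core subunits carry the flavin, the iron-sulfur clusters and the quinone site, and 6 of them fell in bioink against tumour. Ndufs8, which binds a pair of iron-sulfur clusters (chromosome 19, 3908863 to 3912774), had values of 453, 423 and 559 in tumours, 465, 339 and 384 in the 2D culture and 118, 157 and 213 in the bioink. All bioink libraries lay below the other 6, while tumour and 2D libraries overlapped. On the log2 scale it was -1.58 (SE 0.22, limma adjusted p = 0.000128) against tumour and -1.31 (SE 0.22, adjusted p = 0.000547) against 2D culture.

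Ndufs1, the largest core subunit (chromosome 1, 63143592 to 63176822), behaved unlike the other 6. It stood at 829, 996 and 892 in tumours, 1852, 1855 and 1880 in the 2D culture and 1359, 1178 and 1220 in the bioink, so that the bioink lay between the other groups with no overlap. It rose by 0.47 (SE 0.08, limma adjusted p = 0.000606) from tumour to bioink and by 1.04 (SE 0.08, adjusted p = 2.77e-06) from tumour to 2D culture, and was lower in bioink than in 2D culture (log2 -0.57, SE 0.08, adjusted p = 0.000183). It also has the longest coding sequence of the tested members, 2181 bases; with the length trend taken out the rise in bioink was 0.25 (limma adjusted p = 0.024).

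Ndufs3, another core subunit, had a different order from Ndufs8, with 609, 649 and 610 in tumours, 404, 379 and 360 in the 2D culture and 416, 271 and 311 in the bioink. Tumours lay above both culture groups, which overlapped with each other. Ndufs3 fell by 0.71 in 2D culture (SE 0.15, limma adjusted p = 0.00227) and by 0.93 in bioink (SE 0.15, adjusted p = 0.000328), and the difference between the cultures, -0.22, was not called (adjusted p = 0.226). That outcome rested on bioink replicate 1: without it Ndufs3 was -0.39 (limma adjusted p = 0.00957), and with array weights -0.31 (adjusted p = 0.00736).

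The flavin-binding core subunit Ndufv1, at 1196, 1162 and 1107 in tumours, 1222, 1002 and 988 in the 2D culture and 704, 605 and 668 in the bioink, was -0.81 on the log2 scale against tumour, with bioink below all other libraries. Ndufs7, which carries an iron-sulfur cluster near the quinone site, had 1731, 1803 and 1750, then 1590, 1793 and 1683, then 768, 911 and 869, a log2 difference of -1.05 against tumour and -0.99 against 2D culture. Ndufv2 had 1274, 1058 and 1126 in tumours, 1641, 1555 and 1532 in the 2D culture and 743, 917 and 931 in the bioink. The 3 groups did not overlap, but the difference of -0.42 between bioink and tumour (limma adjusted p = 0.00468) was no longer called with the length trend taken out (-0.13, adjusted p = 0.331) or with the libraries set to equal sums (-0.16, adjusted p = 0.193).

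Among the 28 tested accessory subunits that support assembly and stability of complex I, 23 fell in bioink against tumour, none rose, and the median was -0.74. Ndufa8, an accessory subunit of the intermembrane-space side (chromosome 2, 36036324 to 36049338) whose promoter is shown above, stood at 1011, 1005 and 1000 in tumours, 1023, 929 and 900 in the 2D culture and 284, 543 and 465 in the bioink. The bioink libraries were spread wider than the other groups, with replicate 1 lowest, and did not overlap with the rest. Its log2 difference was -1.27 (SE 0.20, limma adjusted p = 0.000276) against tumour and -1.19 (SE 0.20, adjusted p = 0.000513) against 2D culture.

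Ndufb10, an accessory subunit of the membrane arm (chromosome 17, 24722060 to 24724423), had 2167, 2073 and 2108 in tumours, 2664, 2897 and 2745 in the 2D culture and 883, 1113 and 1075 in the bioink. The 3 groups were apart, with 2D culture highest. It rose by 0.39 in 2D culture (SE 0.08, limma adjusted p = 0.00332) and differed by -1.44 (SE 0.08, adjusted p = 5.11e-07) between bioink and 2D culture, the largest fall of complex I in that comparison. Ndufa10, an accessory subunit of the membrane arm, rose by 0.51 in 2D culture (SE 0.14, limma adjusted p = 0.011), from 1442, 1467 and 1249 to 2204, 1913 and 1828. Its bioink values, 1361, 928 and 982, overlapped with the tumours, and the call against tumour (-0.36, limma adjusted p = 0.0444) was lost with the length trend taken out (-0.19, adjusted p = 0.24).

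A few accessory subunits were lower in both culture groups than in tumours. Ndufb11, encoded on the X chromosome, had 1057, 992 and 1199 in tumours, 688, 721 and 718 in the 2D culture and 432, 560 and 542 in the bioink. The groups did not overlap and tumours were highest (log2 -0.61 for 2D culture and -1.09 for bioink, limma adjusted p = 0.00111 and 1.69e-05). Ndufv3, which sits beside the flavin subunit, followed the same order with 1250, 1246 and 1206, then 862, 822 and 880, then 716, 746 and 776 (log2 -0.53 and -0.73). The difference of Ndufb11 between the cultures (-0.48, limma adjusted p = 0.00419) was lost with the length trend taken out (-0.14, adjusted p = 0.349). Ndufa6 and Ndufa13 were the other 2 accessory subunits called lower in 2D culture, with log2 differences of -0.35 and -0.23; the fall of Ndufa6 in bioink (-0.53, limma adjusted p = 0.0024) became -0.09 (adjusted p = 0.546) with the length trend taken out. At the other end, Ndufa1, Ndufa7, Ndufb2, Ndufc1 and Ndufs4 were not called in bioink against tumour, with log2 differences from -0.49 to 0.03.

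Complex II, succinate dehydrogenase, belongs to both the respiratory chain and the tricarboxylic acid cycle and is wholly encoded in the nucleus. Its 4 genes did not move together. Against tumour, the iron-sulfur subunit and both membrane anchors fell in bioink, and the flavin subunit Sdha rose; against 2D culture all 4 were lower in bioink.

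Sdhb, the iron-sulfur subunit (chromosome 4, 140961271 to 140979198), had 2734, 2397 and 2273 in tumours, 2572, 2477 and 2576 in the 2D culture and 1122, 1088 and 1105 in the bioink. Tumour and 2D libraries overlapped and the bioink lay far below them. In log2 units this was -1.15 (SE 0.07, limma adjusted p = 4.53e-07) against tumour and -1.20 (SE 0.07, adjusted p = 4.51e-07) against 2D culture.

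Sdha, which carries the flavin and oxidizes succinate (chromosome 13, 74322255 to 74350240), stood at 1331, 1105 and 1157 in tumours, 1794, 1647 and 1664 in the 2D culture and 1503, 1520 and 1392 in the bioink. The bioink lay between the other groups, as for Ndufs1. It rose by 0.30 in bioink (SE 0.08, limma adjusted p = 0.00772) and by 0.51 in 2D culture (SE 0.08, adjusted p = 0.000379). With a coding length of 1992 bases, its rise in bioink became 0.11 (limma adjusted p = 0.242) with the length trend taken out. The fall of 0.21 from 2D culture to bioink (limma adjusted p = 0.0445) became -0.01 (adjusted p = 0.91) with equal sums and was lost in 7 of the 9 fits that left out 1 library.

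The membrane anchors Sdhc and Sdhd bind ubiquinone. Sdhc had 1473, 1452 and 1488 in tumours, 1377, 1434 and 1381 in the 2D culture and 731, 815 and 845 in the bioink, apart from both other groups (log2 -0.89 and -0.81, limma adjusted p = 2.01e-06 and 4.46e-06). Sdhd had 1030, 1022 and 954, then 1336, 1138 and 1219, then 920, 685 and 834. The groups did not overlap, with 2D culture highest. Its fall in bioink against tumour (-0.31, limma adjusted p = 0.0295) became 0.09 (adjusted p = 0.456) with the length trend taken out and -0.05 (adjusted p = 0.716) with equal sums, and it was called in 6 of the 9 fits that left out 1 library.

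Complex III, the cytochrome bc1 complex, was lower in bioink throughout on the deposited scale. All 8 of its genes in the rule were called lower than in tumours and than in 2D culture, against 37.3% and 32.2% of all rows. The median log2 differences were -0.57 and -0.79. In 2D culture 3 of the 8 were higher than in tumours and none was lower. With the length trend taken out, 3 of the 8 were lower and 1 was higher in bioink against tumour. Of all rows, 36% were then lower and 26.1% higher, so the share of complex III called lower was close to that of all rows. With equal sums 3 of the 8 were lower, against 27.8% of all rows.

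Uqcrc1, a core protein of the matrix side (chromosome 9, 108936648 to 108949641), had 649, 620 and 624 in tumours, 617, 616 and 597 in the 2D culture and 239, 276 and 292 in the bioink. Bioink values were far below both other groups, which lay close to each other. The log2 difference was -1.23 (SE 0.09, limma adjusted p = 2.26e-06) against tumour and -1.18 (SE 0.09, adjusted p = 3.59e-06) against 2D culture. Its coding length is 1440 bases, near the median of the table, and with the length trend taken out it was -1.26.

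Its partner Uqcrc2 moved less, with 996, 956 and 811 in tumours, 1162, 1135 and 1118 in the 2D culture and 706, 711 and 767 in the bioink. The 3 groups did not overlap (log2 -0.33 against tumour, limma adjusted p = 0.00627), but the call was lost under 3 of the 5 scalings, which include the deposited one. The Rieske iron-sulfur subunit Uqcrfs1 (chromosome 13, 30540312 to 30545316), which hands electrons to cytochrome c1, had 1494, 1459 and 1461, then 1317, 1535 and 1515, then 954, 692 and 849. Tumour and 2D libraries overlapped and bioink lay below (log2 -0.83 against tumour, SE 0.11, limma adjusted p = 0.000105).

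The 5 small accessory subunits of complex III had log2 differences from -0.77 to -0.35 against tumour. Uqcrq, a subunit beside cytochrome b, had 5103, 4440 and 3610 in tumours, 5540, 5226 and 5306 in the 2D culture and 2559, 2345 and 2747 in the bioink. Tumour libraries spread widely but stayed above the bioink (log2 -0.77, limma adjusted p = 0.000187, and -1.07 against 2D culture, adjusted p = 2.29e-05), and the first was lost with the length trend taken out (-0.24, adjusted p = 0.076). Uqcr11, with 1011, 1042 and 1039 in tumours, 1619, 1451 and 1240 in the 2D culture and 866, 763 and 792 in the bioink, showed the largest rise of complex III in 2D culture (0.47, SE 0.10, limma adjusted p = 0.00222). Its coding sequence has 168 bases, and its difference between bioink and tumour turned from -0.35 (limma adjusted p = 0.00899) to 0.24 (adjusted p = 0.0198) with the length trend taken out.

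**Figure D3:**
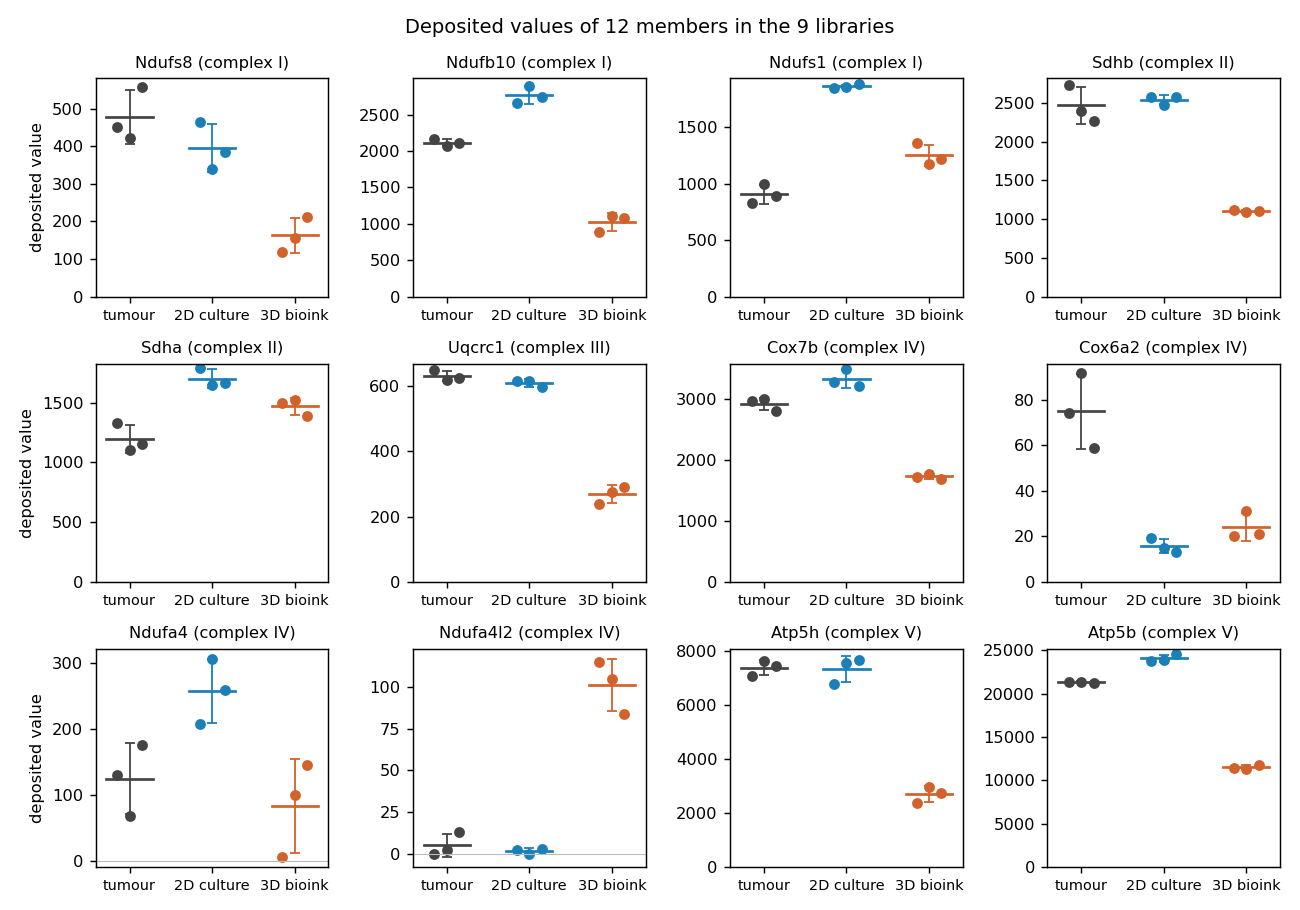
Deposited values of 12 members in the 9 libraries, 1 panel per gene with its own axis from 0; points are libraries, bars the mean and whiskers the SD of 3. In Ndufs8, Ndufb10, Sdhb, Uqcrc1, Cox7b, Atp5h and Atp5b the bioink is below all other libraries, in Ndufs1 and Sdha it lies between tumour and 2D culture, and in Ndufa4l2 it stands at 84 to 115 against 0 to 13 elsewhere.

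Complex IV, cytochrome c oxidase, had the medians closest to 0 in the bioink comparisons. Of its 14 tested genes, 7 were called lower and 1 higher in bioink against tumour, with a median log2 difference of -0.51. These were 50% and 7.14%, against 37.3% and 27.1% of all rows. Against 2D culture 6 were lower and 1 higher, with a median of -0.42. These were 42.9% and 7.14%, against 32.2% and 27% of all rows. Between 2D culture and tumour 2 were higher and 3 lower (14.3% and 21.4%, against 27.3% and 27% of all rows). With the length trend taken out, 3 were lower and 2 higher in bioink against tumour, where 36% of all rows were lower and 26.1% higher. Against 2D culture 2 were then lower and 3 higher, where 31.8% of all rows were lower and 25.8% higher. In both, the share of complex IV called lower was below that of all rows. The median against 2D culture turned to 0.06 (0.09 with the robust trend, 2 lower and 4 higher). Several of these genes are short and have near-identical processed copies in the genome, so their values are uncertain where reads could have been split between copies.

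Cox7b, on the X chromosome at 106015700 to 106022450, varied little between libraries of a group. It had 2970, 2998 and 2805 in tumours, 3293, 3499 and 3216 in the 2D culture and 1730, 1780 and 1697 in the bioink. The 3 groups did not overlap (log2 -0.75 against tumour and -0.94 against 2D culture, SE 0.05 each, limma adjusted p = 1.33e-06 and 3.88e-07). With the length trend taken out the difference from tumour was -0.22 (limma adjusted p = 0.0165). Cox5a, which borders the core of the enzyme, had 894, 853 and 794, then 815, 816 and 633, then 570, 448 and 483. Bioink lay below the rest, tumour and 2D libraries overlapped, and the log2 difference was -0.76 (SE 0.12, limma adjusted p = 0.000417) against tumour. Against 2D culture it was -0.59 (limma adjusted p = 0.00248), and -0.24 (adjusted p = 0.0907) with the length trend taken out. Cox5b, Cox6b1, Cox7a2 and Cox7c were not called in any of the 3 comparisons. With array weights, Cox6b1 was called lower in bioink than in 2D culture (-0.64, limma adjusted p = 0.00904).

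Several complex IV subunits come as isoforms, a form found in most tissues and a form of heart, skeletal muscle or testis. Cox6a1, the common form of subunit VIa, had 1433, 1351 and 1328 in tumours, 1707, 1621 and 1692 in the 2D culture and 980, 972 and 1073 in the bioink. No groups overlapped, 2D culture was highest, and the log2 difference was -0.44 (SE 0.06, limma adjusted p = 0.000161) between bioink and tumour and 0.29 (SE 0.06, adjusted p = 0.00322) between 2D culture and tumour. With the length trend taken out the first became 0.03 (limma adjusted p = 0.749).

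Cox6a2, the heart and muscle form (chromosome 7, 128205435 to 128206366), had 74, 92 and 59 in tumours, 19, 15 and 13 in the 2D culture and 20, 31 and 21 in the bioink. Tumours were above both cultures, and the cultures lay close together. It fell by 2.18 in 2D culture (SE 0.34, limma adjusted p = 0.00039) and by 1.61 in bioink (SE 0.34, adjusted p = 0.00224), while the difference between the cultures, 0.57, was not called (adjusted p = 0.175) but was 1.02 (adjusted p = 0.0306) with the length trend taken out and -0.28 with quantile normalization. The 8 listed markers of striated muscle summed to 88 to 141 in tumours, 272 to 286 in 2D culture and 131 to 143 in bioink, with most of the 2D sum from Tnnt2 (245, 258 and 271). Tnnt3, another of them, had 23, 44 and 33 in tumours, 5, 2 and 6 in the 2D culture and 37, 41 and 45 in the bioink, and Ckm was listed at 0 in all libraries but 1 tumour library. The part of muscle cells in the Cox6a2 values was not tested. Cox6b2, the testis form of subunit VIb, had 7, 21 and 43 in tumours, 18, 14 and 20 in the 2D culture and 23, 21 and 26 in the bioink, and was not called in any comparison. The other restricted forms were at or near 0: Cox7a1 ran from 0 to 15 over the 9 libraries, Cox8b from 0 to 9 and Cox7b2 from 0 to 2.

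Cox8a and Cox7a2l were lower in both cultures than in tumours. Cox8a, the common form of subunit VIII, had 2387, 2311 and 2323 in tumours, 1901, 1832 and 1897 in the 2D culture and 1658, 1420 and 1407 in the bioink. The groups did not overlap (log2 -0.32 for 2D culture and -0.65 for bioink, limma adjusted p = 0.00291 and 2.03e-05). The difference of -0.33 between the cultures turned to 0.16 (limma adjusted p = 0.0687) with the length trend and to a called rise of 0.19 (adjusted p = 0.0155) with the robust trend taken out, and the fall in bioink against tumour became -0.09 (adjusted p = 0.247). Cox7a2l, the supercomplex factor, had 1406, 1273 and 1440, then 1090, 1006 and 922, then 1067, 825 and 887, so that the cultures overlapped and tumours lay above both (log2 -0.45 for 2D culture and -0.57 for bioink). For bioink it was -0.14 (limma adjusted p = 0.193) with the length trend taken out. The direction between the cultures depended on the processing: Cox7a2l was -0.12 (limma adjusted p = 0.337), -0.23 (adjusted p = 0.0499) without bioink replicate 1 and -0.19 (adjusted p = 0.0241) with array weights, but 0.25 (adjusted p = 0.0336) with the length trend and 0.27 (adjusted p = 0.0188) with the robust trend taken out.

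The NDUFA4 pair held the largest rise of both bioink comparisons. Ndufa4l2, whose product is known as a hypoxia-inducible relative of NDUFA4 (chromosome 10, 127509274 to 127517154), stood at 0, 2 and 13 in tumours, 2, 0 and 3 in the 2D culture and 115, 105 and 84 in the bioink. All 3 bioink libraries lay above all others, which were near 0. On the log2(value + 1) scale it rose by 4.87 (SE 0.93, limma adjusted p = 0.00117) against tumour and by 5.47 (SE 0.93, adjusted p = 0.000645) against 2D culture. These sizes rest on values near 0 and depend on the number added before the log: against tumour it was 5.30 with 0.5 added and 3.62 with 5 added, and 3.97 to 5.87 when 1 library was left out.

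Ndufa4 itself (chromosome 6, 11900372 to 11907450) had 130, 68 and 175 in tumours, 207, 305 and 259 in the 2D culture and 6, 99 and 145 in the bioink. The bioink libraries were wide apart, with replicate 1 lowest, and overlapped with tumours, while 2D culture was highest. The difference of -1.32 against tumour was not called (SE 0.95, limma adjusted p = 0.247) and became 0.05 without bioink replicate 1. The fall of -2.45 against 2D culture (limma adjusted p = 0.0486) was called in 3 of the 9 fits that left out 1 library. For Ndufa4 against 2D culture, leaving out bioink replicate 1 gave -1.08 (limma adjusted p = 0.0368), array weights gave -1.07 (adjusted p = 0.072), and the value was -1.98 (adjusted p = 0.104) with the length trend taken out. Between 2D culture and tumour, Ndufa4 was 1.13 without overlap and was not called (limma adjusted p = 0.349). That rise was called without bioink replicate 1 (limma adjusted p = 0.0187) and with only the 2 groups compared (adjusted p = 0.0271).

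Complex V, the ATP synthase, showed the lowest medians in the bioink comparisons. Of its 17 genes, 14 were lower and none was higher in bioink than in tumours, with a median log2 difference of -0.78, and 15 were lower than in 2D culture, with a median of -1.04. In 2D culture 8 were higher than in tumours and none was lower. Summed, the 17 genes stood at 58054, 57999 and 57688 in tumours, 64545, 65106 and 64416 in the 2D culture and 30091, 31216 and 31660 in the bioink, with no overlap. With the length trend taken out, 10 were lower in bioink than in tumours and none was higher, where 36% of all rows were lower and 26.1% higher.

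All 5 subunits of the catalytic head and central stalk fell, between -0.75 and -0.89 against tumour. Atp5b, the catalytic beta subunit (chromosome 10, 128083307 to 128090388), had 21408, 21411 and 21268 in tumours, 23826, 23917 and 24543 in the 2D culture and 11451, 11351 and 11780 in the bioink. The groups were tight and far apart, with 2D culture highest. On the log2 scale it was -0.89 (SE 0.04, limma adjusted p = 6.24e-08) against tumour and -1.06 (SE 0.04, adjusted p = 3.57e-08) against 2D culture, and 0.17 (SE 0.04, adjusted p = 0.00382) between 2D culture and tumour. Its coding length of 1587 bases is above the median of the table, and with the length trend taken out the fall against tumour was -0.97; with quantile normalization it was -0.36 (limma adjusted p = 2.98e-05). Atp5a1, the alpha subunit beside it, had 7567, 7279 and 7249, then 8708, 8608 and 8462, then 3845, 4608 and 4451.

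The peripheral stalk holds the head in place, and all 4 of its genes fell, with a median of -0.93 against tumour. Atp5h, subunit d of the stalk (chromosome 11, 115415691 to 115419919), had 7076, 7624 and 7445 in tumours, 6783, 7548 and 7685 in the 2D culture and 2380, 2945 and 2758 in the bioink. Tumour and 2D libraries overlapped, and the bioink lay far below them. Its log2 difference was -1.46 (SE 0.08, limma adjusted p = 2.81e-07) against tumour and -1.45 (SE 0.08, adjusted p = 3.81e-07) against 2D culture. Atp5f1, subunit b of the stalk, had 1932, 2031 and 2107, then 2648, 2813 and 2621, then 1334, 1501 and 1506, so that 2D culture rose above tumours (0.41, SE 0.07, limma adjusted p = 0.000425) and bioink fell below them (-0.48, SE 0.07, adjusted p = 0.000115). The fall of Atp5f1 was -0.20 (limma adjusted p = 0.0355) with the length trend taken out.

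The membrane part held the largest fall of the complex that was called against tumour. Atp5mpl, which encodes a small proteolipid of the synthase (chromosome 12, 111961374 to 111967009), had 2825, 3314 and 3427 in tumours, 2735, 2910 and 2838 in the 2D culture and 789, 1286 and 1321 in the bioink. Bioink replicate 1 was lowest and all bioink libraries lay below the rest. In log2 units this was -1.53 (SE 0.17, limma adjusted p = 3.38e-05) against tumour and -1.36 (SE 0.17, adjusted p = 9.11e-05) against 2D culture. Among the other small subunits, Atp5k was -1.01 (SE 0.18) and Atp5j2 -0.65 (SE 0.08) on the log2 scale against tumour, and both calls were lost with the length trend taken out (-0.46 and -0.13). In contrast, Atp5l, at 356, 342 and 269 in tumours and 538, 277 and 276 in bioink, was not called.

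The c ring that turns with the proton flow is built from copies of a single mature protein encoded by 3 genes, Atp5g1 to Atp5g3, and all 3 were called higher in 2D culture than in tumours. Atp5g1 (chromosome 11, 96072793 to 96075694) had 1115, 1064 and 1234 in tumours, 1641, 1618 and 1376 in the 2D culture and 640, 705 and 744 in the bioink. The groups did not overlap (log2 0.44 for 2D culture and -0.71 for bioink against tumour, limma adjusted p = 0.00292 and 0.000105). Atp5g3 followed the same order, with 1129, 1239 and 1346, then 1782, 1549 and 1392, then 1034, 880 and 915, and its fall of -0.39 against tumour became 0.03 with the length trend taken out. Atp5g2 had values of 29, 0 and 0, then 35, 36 and 48, then 0, 8 and 4; its rise in 2D culture (3.70, SE 1.31, limma adjusted p = 0.0373) rests on tumour values listed at 0 and was called in 3 of the 9 fits that left out 1 library. Its difference between bioink and 2D culture (-3.50, limma adjusted p = 0.0428) was called in 4 of those 9 fits. The genes have processed copies elsewhere in the genome, so reads could have been split between copies.

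Most genes encoded by the mitochondrial genome were higher in bioink, where most nuclear members were lower. The 13 mtDNA-encoded subunit genes summed to 84623, 92455 and 95159 in tumours, 144457, 145164 and 146939 in the 2D culture and 312892, 231792 and 257878 in the bioink. The 3 groups did not overlap, bioink was highest, and bioink replicate 1 was the highest of all. Against tumour 11 of the 13 were called higher and 1 lower in bioink, with a median log2 difference of 2.16. In 2D culture 10 were higher and 2 lower than in tumours, with a median of 1.34. The higher ones were 84.6% and 76.9%, against 27.1% and 27.3% of all rows. Against 2D culture 12 were higher in bioink (92.3%, against 27% of all rows) and none was lower, with a median of 0.97. For these genes no values with the length trend taken out or under other scalings are given here.

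COX1, the catalytic subunit of complex IV, had 32662, 34935 and 35089 in tumours, 50411, 53494 and 55205 in the 2D culture and 108078, 82801 and 93195 in the bioink (log2 1.46 for bioink against tumour, SE 0.09, limma adjusted p = 4.95e-07). The 1 gene called lower in bioink than in tumours was ND6, the subunit gene on the opposite strand of the mitochondrial genome. It had 8109, 10598 and 10147 in tumours, 3398, 3485 and 3241 in the 2D culture and 7005, 6287 and 6581 in the bioink, with log2 differences of -1.50 for 2D culture and -0.53 for bioink (limma adjusted p = 5.49e-07 and 0.000673). Whether reads were counted by strand is not given in the sources used here, so reads of ND6 and of the transcripts opposite to it cannot be told apart.

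**Figure D4:**
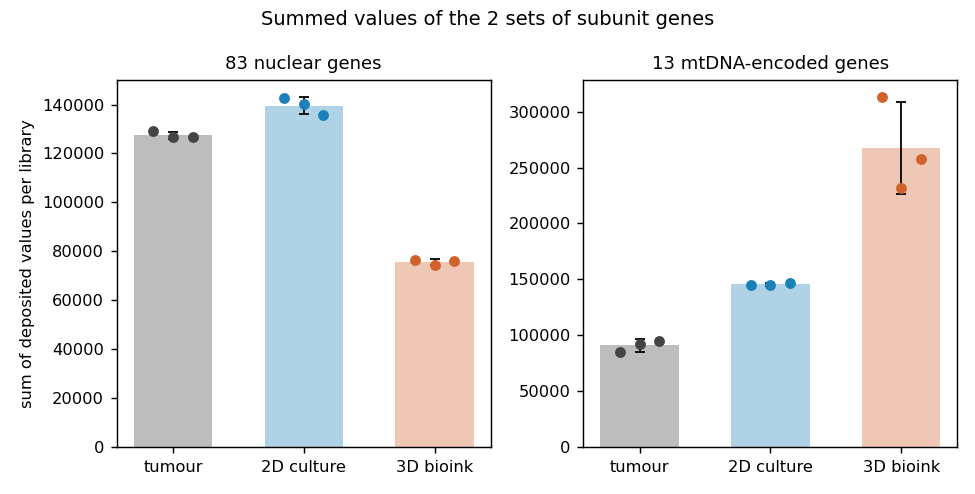
Sum of the deposited values of the 83 nuclear genes and of the 13 mtDNA-encoded genes in each library; points are libraries, bars the mean and whiskers the SD of 3 libraries. The nuclear sum is lowest in bioink (74213 to 76358) and the mtDNA sum is highest there (231792 to 312892).

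Genes that act beside the members were described from lists of known function, without taking out the length trend. Of 49 tested assembly factors, which insert cofactors and build the complexes, 27 were lower and 2 higher in bioink than in tumours, with a median of -0.58. These were 55.1% and 4.08%, against 37.3% and 27.1% of all rows. In 2D culture 8 were higher than in tumours (16.3%, against 27.3% of all rows) and none was lower, against 27% of all rows. Ecsit, a complex I assembly factor, was at 562, 531 and 463 in tumours, 450, 516 and 519 in the 2D culture and 221, 226 and 222 in the bioink. Bioink lay below the other libraries, which overlapped. Of the 7 subunit genes outside the symbol rule, 4 were lower (57.1%, against 37.3% of all rows) and none higher in bioink than in tumours. Cyc1, cytochrome c1 of complex III, had 529, 609 and 571, then 371, 401 and 276, then 265, 236 and 197, and Cox4i1, a large nuclear subunit of complex IV, had 3793, 3536 and 3095, then 3932, 3658 and 3662, then 2620, 1968 and 2008.

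The tricarboxylic acid cycle supplies the NADH and succinate that the chain oxidizes. Of its 11 tested enzymes, 9 were lower and 1 higher in bioink than in tumours, with a median of -0.66. These were 81.8% and 9.09%, against 37.3% and 27.1% of all rows. In 2D culture 6 were higher and 1 lower than in tumours (54.5% and 9.09%, against 27.3% and 27% of all rows). All 11 were lower in bioink than in 2D culture, against 32.2% of all rows, with a median of -0.87. Citrate synthase, Cs, had 6314, 6124 and 5732 in tumours, 10448, 10106 and 10350 in the 2D culture and 5200, 5332 and 5382 in the bioink, with no overlap. Idh3a was listed at 0 in every library.

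Of the 12 tested regulators of mitochondrial biogenesis, 6 were lower and 2 higher in bioink than in tumours. These were 50% and 16.7%, against 37.3% and 27.1% of all rows, so the list did not move as a whole. Nrf1, whose motif was searched in the promoters, had 1039, 1061 and 1139 in tumours, 1313, 1414 and 1430 in the 2D culture and 645, 828 and 812 in the bioink, apart in all 3 groups (log2 -0.51 against tumour, limma adjusted p = 0.00123). Tfam, which packages and transcribes mitochondrial DNA, had 955, 947 and 970, then 1271, 1261 and 1084, then 603, 659 and 726. Gabpa, the DNA-binding subunit of GABP, was instead higher in bioink, at 1545, 1859 and 1861 against 1090, 1046 and 1068 in tumours, and was as high in 2D culture, at 2053, 1787 and 1994 (bioink minus tumour, log2 0.71, limma adjusted p = 4.93e-05).

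Genes tied to the response to low oxygen, a list that includes Hif1a itself, were mixed. Of 10 tested, 6 were higher and 3 lower in bioink than in tumours (median 0.48), where 27.1% of all rows were higher and 37.3% lower. In 2D culture 4 were higher and 6 lower than in tumours (median -0.27), against 27.3% and 27% of all rows. Against 2D culture 6 were higher and 1 lower in bioink (median 0.40), where 27% of all rows were higher and 32.2% lower. Slc2a1, the glucose carrier GLUT1, had 5738, 5292 and 5248 in tumours, 1639, 1493 and 1658 in the 2D culture and 11750, 11489 and 11652 in the bioink. The 3 groups were far apart, with bioink highest. Pdk1, the kinase that shuts pyruvate dehydrogenase, had 573, 638 and 635, then 822, 887 and 817, then 1565, 1435 and 1606, whereas Hk2 and Lonp1 were lower in bioink than in tumours (log2 -0.67 and -0.74). Oxygen was not measured, and the part of any such difference in the members' values was not tested.

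The scale of the bioink comparisons depended on how the libraries were brought to one level. Under 4 other scalings the median of all rows between bioink and tumour moved from -0.11 to between -0.02 and 0.14, and that of the members from -0.74 to between -0.48 and -0.64, and 3 of these scalings move all rows of a library by about the same amount. With quantile normalization the median of the members minus that of all rows went from -0.62 to -0.58 against tumour and from -0.76 to -0.58 against 2D culture. With equal sums, 47 members were lower and 3 higher, and the calls over all rows turned from 37.3% lower and 27.1% higher to 27.8% lower and 35.5% higher. Against 2D culture, equal sums gave 54 members lower and 1 higher, with 25% of all rows lower and 34.2% higher, and between 2D culture and tumour quantile normalization gave 22.2% lower and 32.6% higher.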

How the data were processed

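Gene expression was taken from 1 deposited matrix of 20778 gene symbols in 9 libraries. The values are a score in the sense that they are normalized counts which the authors rounded to whole numbers before they were deposited; the formula, the counting step and its use of strand are not given in the sources used here. Per the submitters' processing notes, kallisto, RSEM, DESeq and DESeq2 (version 1.24.0) and the mm10 build were used, with no role or order stated. Per the labels' protocols, RNA of 25 to 75 ng went through 14 PCR cycles with a directional kit. Depth is unknown, so the 3 libraries per group set the precision. Libraries were grouped by title.

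log2(value + 1) was fitted over all 9 libraries with limma 3.58.1 (R 4.3.3; group means, moderated variance with trend) for the 13773 rows with a mean of at least 10, and p-values were adjusted by Benjamini-Hochberg over those rows with a threshold of 0.05. 2865 rows were 0 throughout. The fit was tested on simulated data. Adding 1 shrinks the fold changes of low genes, but where some libraries of a group are at 0 this scale can exceed the ratio of group means. Atp5g2 in 2D culture against tumour had means of 39.7 and 9.67 but a ratio of 13 on this scale. Coding lengths (longest coding sequence per symbol, GENCODE vM21, for 99.2% of rows tested) were removed as a loess trend (span 0.5) per library in an alternative, and again with robust weights in one chosen after seeing the data. Promoters and gene positions came from RefSeq for GRCm38.p6. Other alternatives were 4 scalings, pseudocounts of 0.5 and 5, a minimum mean of 50 or none, array weights, a fit on only the groups compared, the replicate number as a block, and leaving out each library. Tables were handled in Python 3.11.15 with pandas 2.3.3 and numpy 2.4.6.

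The members, gene lists, motifs and marker lists were chosen with earlier results of these data known. Genes named by rule were, per comparison and complex, the 2 largest rises and 2 largest falls among calls whose groups did not overlap and whose higher mean reached 50, plus complex II, the core subunits of complex I, the isoform pairs and the c-ring genes; other members were named after their values were seen. 1 gene under this rule is not reported here. No RNA quality transcript of the chosen list was in the matrix.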

Additional observations from a re-analysis of the deposited data

How the results depend on the processing

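The counts of members called in the bioink comparisons depended most on coding length and the medians also on scaling. Between bioink and tumour, with a spread of 0.06 between libraries, the median of -0.74 became -0.27 with the length trend taken out and -0.33 with the robust trend, where 5 and 3 members were higher and 37 and 43 lower; it became -0.48 with equal sums, -0.56 with equal upper quartiles, -0.64 with median-of-ratios scaling and -0.54 with quantile normalization. Between bioink and 2D culture the median of -0.78 became, in the same order, -0.47, -0.44, -0.58, -0.61, -0.69 and -0.64, and the 1 member called higher became 4 with the length trend, 5 with the robust trend and 0 with a minimum mean of 50, which leaves Ndufa4l2 untested. Over all rows, 36% were lower in bioink than in tumours with the length trend and 36.2% with the robust trend, and 26.1% were higher with either. Against 2D culture 31.8% and 32% of all rows were lower, and 25.8% and 25.6% higher. Between 2D culture and tumour the median of 0.08 became 0.15 with the length trend, 0.14 with equal sums and 0.19 with quantile normalization. Beyond these shifts the cause was not tested.

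Leaving out 1 library gave medians of -0.74 to -0.70 for bioink against tumour, -0.82 to -0.74 against 2D culture and 0.04 to 0.13 for 2D culture against tumour. The members called lower ran from 55 to 62, 54 to 65 and 6 to 8, and those called higher from 3 to 3, 1 to 1 and 15 to 25.

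Libraries of the same number showed little shared deviation from their group means. Their correlations were -0.0326 to 0.0797, against -0.0635 to 0.0522 for libraries of different numbers. Whether they share more than a number cannot be told from these values. With the replicate number as a block, 3 members were higher and 61 lower in bioink against tumour (median -0.74), 1 higher and 62 lower against 2D culture (-0.78), and 20 higher and 8 lower in 2D culture against tumour (0.08).

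Of the values of named genes under the alternatives, 29, 12 and 9 changed sign in the 3 comparisons in that order, most of them for genes that were not called. For bioink against tumour, the length trend gave 0.03 for Cox6a1 and Atp5g3, 0.45 for Cox6b1, 0.44 for Cox7a2 and 0.09 for Sdhd, and the robust trend 0.37 for Cox6b1, 0.35 for Cox7a2 and 0.03 for Sdhd. Equal sums gave 0.19 for Cox6b1 and 0.18 for Cox7a2, equal upper quartiles 0.11 and 0.10, median-of-ratios scaling 0.03 and 0.01, and quantile normalization 0.16 and 0.13, with -0.38 for Atp5g2. Atp5g2 was -0.18 with a pseudocount of 5, and Ndufa4 was 0.15 with array weights. Left-out libraries gave -2.14 to 0.05 for Ndufa4, -0.30 to 0.17 for Cox6b1, -0.21 to 0.06 for Cox7a2, -0.62 to 1.83 for Atp5g2 and -0.36 to 0.87 for Cox6b2.

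For bioink against 2D culture, the length trend gave 0.27 for Cox7a2, 0.25 for Cox7a2l and 0.16 for Cox8a, and the robust trend 0.30, 0.27 and 0.19; the values of Cox7a2l under both trends and of Cox8a under the robust trend were called rises. Cox7a2l was 0.07 with equal sums, 0.04 with equal upper quartiles and 0.05 with quantile normalization, where Cox6a2 was -0.28 and Cox6b2 -0.44. Left-out libraries gave -0.50 to 0.12 for Cox7a2. For 2D culture against tumour, Ndufs7 was 0.05 with the length trend and 0.00 with equal sums, and quantile normalization gave 0.02 for Ndufa4l2 and 0.62 for Cox6b2. Left-out libraries gave -0.20 to 0.42 for Cox7a2, -0.78 to 0.45 for Cox6b2, -1.50 to 0.40 for Ndufa4l2 and -0.01 to 0.12 for Sdhb.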

Other observations

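Assembly factors were counted by complex in bioink against tumour, where 37.3% of all rows were called lower; differences between these lists were not tested. Of the 6 for complex III, 5 were lower (median -0.87), of the 22 tested for complex IV, 11 (median -0.53), of the 3 for complex V, 2 (median -0.84), and of the 4 for complex II, 1 (median 0.03). Surf1, a complex IV assembly factor, had 453, 650 and 596 in tumours, 642, 660 and 628 in the 2D culture and 261, 363 and 304 in the bioink, below all other libraries. Of the 14 for complex I, 8 were lower and 2 higher, and the higher ones were Ndufaf7 and Tmem126b. Ndufaf7, a methyltransferase, had 44, 80 and 56, then 152, 143 and 124, then 84, 109 and 151. It was higher in bioink than in tumours (log2 0.92, SE 0.29, limma adjusted p = 0.0168).

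Atpif1, the inhibitor of the ATP synthase, fell in both cultures, from 4910, 5317 and 5503 in tumours to 4193, 4253 and 4148 in the 2D culture and 2382, 2882 and 2618 in the bioink. Cytochrome c, Cycs, rose in 2D culture and fell in bioink against tumour (log2 0.26 and -0.71, limma adjusted p = 0.016 and 2.14e-05). Mdh2, malate dehydrogenase of the mitochondrial matrix, had 5458, 5752 and 5544, then 8912, 8402 and 8409, then 3021, 3764 and 3608. The groups stood apart, with 2D culture highest and bioink lowest. Cox4i2, the oxygen-regulated form of subunit IV, had 20, 6 and 40, then 2, 2 and 6, then 61, 11 and 10, and its difference between bioink and 2D culture (2.34, SE 0.86, limma adjusted p = 0.0398) rested on low values that varied widely within a group.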
